A study of Mus musculus with 39 samples.

Results

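The genes described here are the 37 numbered subunit genes of the mouse proteasome, followed across 10 groups of RNA-seq libraries from skeletal muscle stem cells (MuSCs) and hindlimb muscle. They were chosen by name alone, as every row of the 2 deposited expression tables whose symbol reads Psma, Psmb, Psmc or Psmd and then a number. The rule found 37 of 16979 genes in the table of labelling and inhibitor libraries and the same 37 of 13938 genes in the table of fixation libraries. Psma8 and Psmb11 were not analysed here. By the textbook make-up of the complex the members fell into 7 alpha ring genes (Psma1 to Psma7), 7 beta ring genes (Psmb1 to Psmb7), 3 immune beta genes (Psmb8, Psmb9 and Psmb10), 6 base ATPases (Psmc1 to Psmc6), 3 other base genes (Psmd1, Psmd2 and Psmd4), 8 lid genes (Psmd3, Psmd6, Psmd7, Psmd8, Psmd11, Psmd12, Psmd13 and Psmd14) and 3 assembly chaperones of the base (Psmd5, Psmd9 and Psmd10).

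The study asked how the transcripts of MuSCs, the resident stem cells that rebuild muscle fibres, differ between the animal and the isolated state. Mice carrying the Pax7CreER/+: UPRTHA/+ alleles express uracil phosphoribosyltransferase in Pax7-positive cells, so that these cells can build injected 4-thiouracil (4tU) into new RNA. In 3 groups the mice received 4tU 6 h before harvest, every 12 h over 1 d, or every 12 h over 4 d, and 4tU-tagged transcripts were then captured out of hindlimb muscle total RNA. In a further group 4tU was present only during the isolation of the cells, which lasts about 6 h, and tagged RNA was pulled down from the purified MuSCs; this is called isolation-labelled RNA below. The matched total RNAs were those of the purified MuSCs and of hindlimb muscle. Separately, MuSCs were isolated in the presence of α-amanitin, which blocks RNA polymerase II, or of its solvent DMSO, both without 4tU. For the last pair, mice were perfused with 1% paraformaldehyde before MuSCs were isolated by FACS, or were not fixed, and RNA of both was purified with a kit for fixed tissue. The labels used here state no age, sex or strain, and name no genotype for the inhibitor and fixation mice. There were 4 libraries in each group except the unfixed cells, which had 3; the fixed libraries are numbered 1, 3, 4 and 5. The labels do not say that replicates came from separate animals, so p-values measure spread among the libraries, and that spread may be technical.

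Recovered gene reads per library lay between 30933516 and 102619074 in the 3 in vivo labelled groups and whole muscle, between 15307952 and 54214947 in the isolated, inhibitor and fixation libraries, and between 2321903 and 7742378 in isolation-labelled RNA, the shallowest group. The labels call the in vivo labelled RNA stem cell RNA, but its muscle fibre markers (16 genes, among them Acta1 and Ckm) took 11.6 to 21.3% of reads, against 18.1 to 18.5% in whole muscle, while Pax7 averaged 0.318, 0.178 and 0.196 RPKM after 6 h, 1 d and 4 d of labelling, against 17.9 RPKM in purified MuSCs and 0.0889 RPKM in whole muscle. It is therefore called by its label time here and not by a cell type. These are bulk libraries, in which more cells of a type cannot be told apart from more RNA per cell.

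The proteasome is the protease that degrades most ubiquitin-tagged proteins. Its core particle is a barrel of alpha and beta rings, with the cutting sites in the subunits encoded by Psmb5, Psmb6 and Psmb7, and its regulatory particle has a base of ATPases that unfolds substrates and a lid that removes their ubiquitin. Interferon-induced immune subunits (Psmb8, Psmb9 and Psmb10) can replace the matching catalytic subunits when new cores are assembled. In muscle the system supplies the bulk of protein breakdown during atrophy, and in MuSCs proteasome activity is needed for the cells to persist.

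Promoter windows of 250 bases before to 50 bases after the start (RefSeq, build GRCm38.p6) were found for 31 of the 37 members. Psmb1, Psmb2, Psmb7, Psmc3, Psmd3 and Psmd7 had no window and were not searched. The letters TGACNNNGC, the core of the antioxidant response element to which the proteasome regulator Nfe2l1 binds, stood on either strand in 5 of these 31 members (16.1%) and in 13.99% of the windows of 27025 genes. The 5 were Psmb5, Psmb6, Psmc6, Psmd9 and Psmd12. The interferon-stimulated response element, searched by its core letters on both strands, stood in 3 of 31 (9.68%; Psmb3, Psmd4 and Psmd9) against 3.99% of all genes, and the NF-Y box CCAAT in 12 of 31 (38.7%) against 41.1%. Psmb5 and Psmb6 encode catalytic subunits and changed in most comparisons below, and Psma5 was the member that stood above whole muscle at every label time, so their upstream 120 bases are shown, 5′ to 3′ on the gene's strand, with matches to any of the 3 in capitals, all of which here are to TGACNNNGC. The coordinates are chr14:54617996-54618115 on the minus strand for Psmb5, chr11:70525237-70525356 on the plus strand for Psmb6 and chr3:108256806-108256925 on the plus strand for Psma5.
Psmb5: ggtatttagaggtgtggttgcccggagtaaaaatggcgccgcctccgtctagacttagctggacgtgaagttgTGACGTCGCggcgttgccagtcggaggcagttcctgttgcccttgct
Psmb6: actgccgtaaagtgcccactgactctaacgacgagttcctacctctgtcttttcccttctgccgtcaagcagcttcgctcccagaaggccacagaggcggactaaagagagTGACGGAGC
Psma5: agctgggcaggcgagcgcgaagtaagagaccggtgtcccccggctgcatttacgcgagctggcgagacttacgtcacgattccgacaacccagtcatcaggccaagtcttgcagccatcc
The stretch shown for Psma5 held none of the 3, and a match or its lack describes the letters only.

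Levels were first set side by side within the labelling and inhibitor table. The RPKM values (read counts scaled by the authors to gene-model length and library size) summed over the 37 members came to 3809 ± 77.1, 5358 ± 264 and 4930 ± 157 after 6 h, 1 d and 4 d of labelling, to 2891 ± 421 in isolation-labelled RNA, to 746 ± 14.8 in total MuSC RNA, to 1991 ± 531 in α-amanitin cells, to 909 ± 195 in DMSO cells and to 6329 ± 183 in whole muscle (SD, n = 4 each). From the highest, the order was whole muscle, 1 d, 4 d, 6 h, isolation-labelled, α-amanitin, DMSO and total MuSC RNA, and no 2 neighbouring groups overlapped, although the lowest α-amanitin library (1197) and the highest DMSO library (1196) nearly met. As a share of all gene reads, which does not use the authors' scaling, the order changed: the members took 0.588% ± 0.0126 of reads after 6 h of labelling and 0.649% ± 0.0485 in isolation-labelled RNA, and 0.310% ± 0.00370 in total MuSC RNA and 0.292% ± 0.0179 in DMSO cells. By this share the α-amanitin libraries, at 0.389 to 0.449%, stood clear of the DMSO libraries, at 0.278 to 0.315%. In the separately scaled fixation table the sum was 2889 ± 424 RPKM in 4 fixed libraries and 1779 ± 174 RPKM in 3 unfixed libraries.

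**Figure D1:**
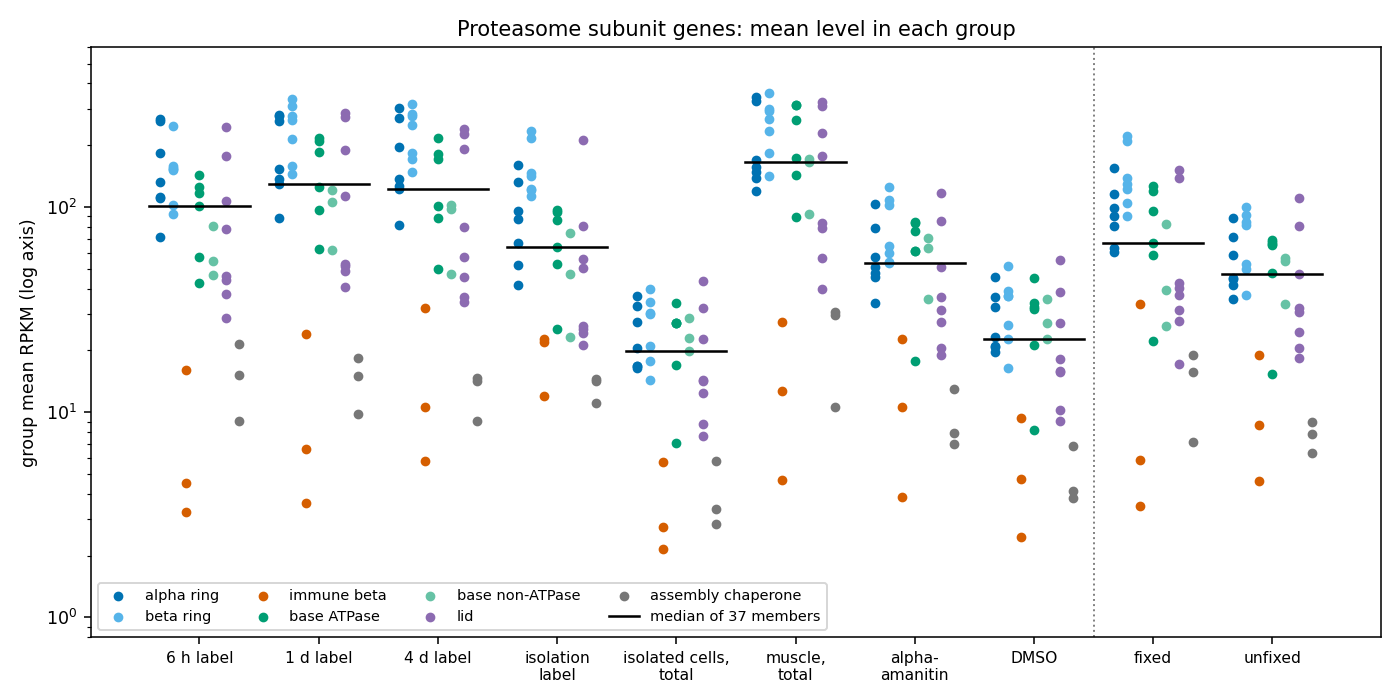
Mean RPKM (log axis) of each of the 37 proteasome genes in each group, coloured by subcomplex, with a bar at the median member; the dotted line separates the 2 tables, which were scaled separately. Total MuSC RNA has the lowest median member (19.7 RPKM) and whole muscle the highest (166 RPKM), and Psmb9 is the lowest member in every group except isolation-labelled RNA.

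Within a group the members spread over a wide range. In total MuSC RNA the highest was Psmd8, a lid gene, at 43.5 RPKM and the lowest Psmb9 at 2.16 RPKM, and in whole muscle the highest was Psmb6 at 358 RPKM and the lowest Psmb9 at 4.70 RPKM. Psmb9 was the lowest member in 9 of the 10 groups; in isolation-labelled RNA the lowest was Psmd10, the chaperone known as gankyrin, at 11.1 RPKM, and Psmb9 stood at 12.0 RPKM. Levels between genes rest on the authors' collapsed gene models, whose length was 2300 bases for the median member, 3659 for Psmb9 and 871 for Psmb5, and a long model with unused exons lowers RPKM.

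The balance of core and regulatory particle transcripts differed between groups. It was measured in each library as the median RPKM of the 14 core genes over that of the 17 base and lid genes. The ratio was 1.81 to 2.04 after 6 h, 1.99 to 2.26 after 1 d and 1.86 to 2.08 after 4 d of labelling, against 1.23 to 1.25 in whole muscle. In isolation-labelled RNA it was 2.89, 1.90, 1.96 and 3.26, against 1.08 to 1.11 in total MuSC RNA. It was 0.953 to 1.09 in α-amanitin cells against 1.06 to 1.17 in DMSO cells, and 2.31 to 2.56 in fixed cells against 1.03 to 1.3 in unfixed cells. Every 4tU pull-down library stood above the total RNA libraries of its source, and every fixed library above the unfixed ones, whereas α-amanitin and DMSO libraries overlapped. Pulled-down and fixed RNA also differ in handling from total RNA. Spearman's rho between gene-model length and log2 change over the 37 members was -0.47 for α-amanitin against DMSO, -0.53 for isolation-labelled against total MuSC RNA, -0.15, -0.37 and -0.34 for 6 h, 1 d and 4 d against whole muscle, and -0.39 for fixed against unfixed cells. Over all genes tested it was -0.20, -0.33, 0.29, 0.17, 0.02 and -0.12 in the same order. The part of length and handling in the ratio was not tested.

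**Figure D2:**
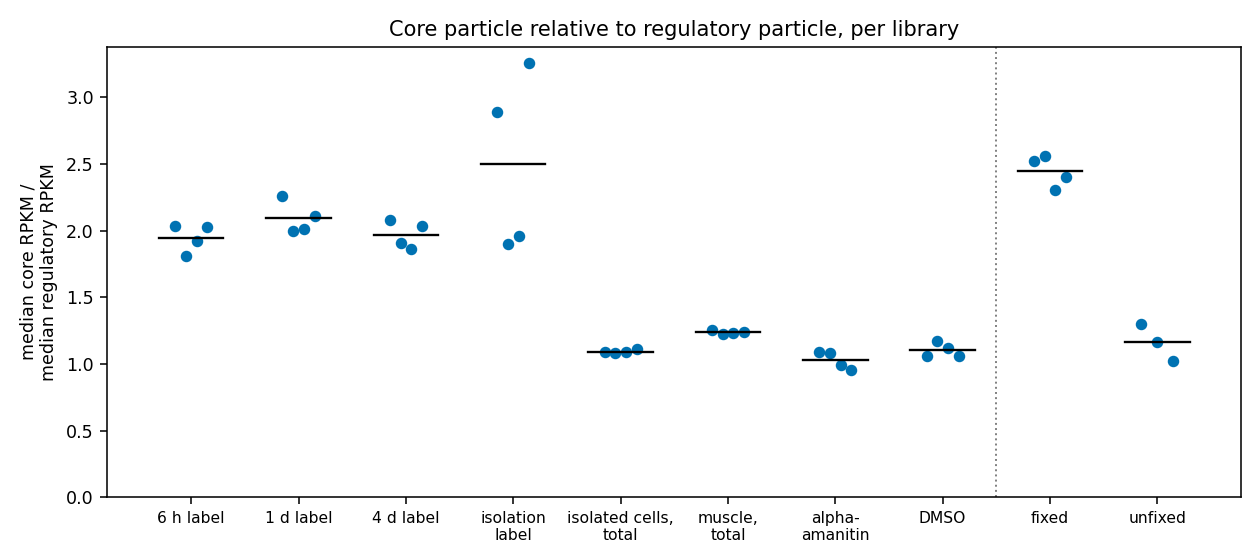
Ratio of the median RPKM of 14 core genes to that of 17 base and lid genes in each library (points) by group. The 3 in vivo labelled groups, isolation-labelled RNA and fixed cells stand near or above 2 (the lowest library at 1.81), and total MuSC RNA, α-amanitin cells, DMSO cells, whole muscle and unfixed cells stay at or below 1.3.

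The share of immune to constitutive catalytic transcripts was higher in isolated MuSCs than in muscle, as a description of the libraries with no test. Psmb8 and Psmb5 encode alternative subunits for the chymotrypsin-like site. The RPKM of Psmb8 was 2.98% ± 0.366 of that of Psmb5 after 6 h, 2.49% ± 0.0530 after 1 d and 4.24% ± 0.140 after 4 d of labelling, against 5.36% ± 0.278 in whole muscle (SD, n = 4). It was 18.5% ± 2.80 in isolation-labelled RNA, against 15.6% ± 1.70 in total MuSC RNA, and 19.2% ± 2.62 in α-amanitin cells, against 21.1% ± 1.44 in DMSO cells. The in vivo labelled and muscle libraries thus lay below every library of unfixed isolated cells in that table. The other 2 shares did not follow Psmb8 throughout. Psmb9, the alternative to Psmb6, averaged 2.05%, 1.07% and 2.03% of Psmb6 after 6 h, 1 d and 4 d, against 1.31% in whole muscle. Its share averaged 5.32% in isolation-labelled RNA and 6.29% in total MuSC RNA, with overlap. It stood at 3.02% ± 0.275 in α-amanitin cells, against 6.52% ± 1.42 in DMSO cells, with no overlap (2.67 to 3.25% and 5.26 to 8.27%). Psmb10, the alternative to Psmb7, averaged 10.4%, 8.66% and 10.2% of Psmb7 after 6 h, 1 d and 4 d, against 9.25% in whole muscle. Its share averaged 20.4% in isolation-labelled RNA and 27.4% in total MuSC RNA, with overlap. It stood at 37.03% ± 6.01 in α-amanitin cells and 35.4% ± 3.04 in DMSO cells, with overlap. In fixed cells the shares averaged 4.83%, 1.71% and 36.01% for Psmb8, Psmb9 and Psmb10, against 18.6%, 5.32% and 40.3% in unfixed cells, whose Psmb8 share ran from 7.98 to 29.3% among 3 libraries.

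**Figure D3:**
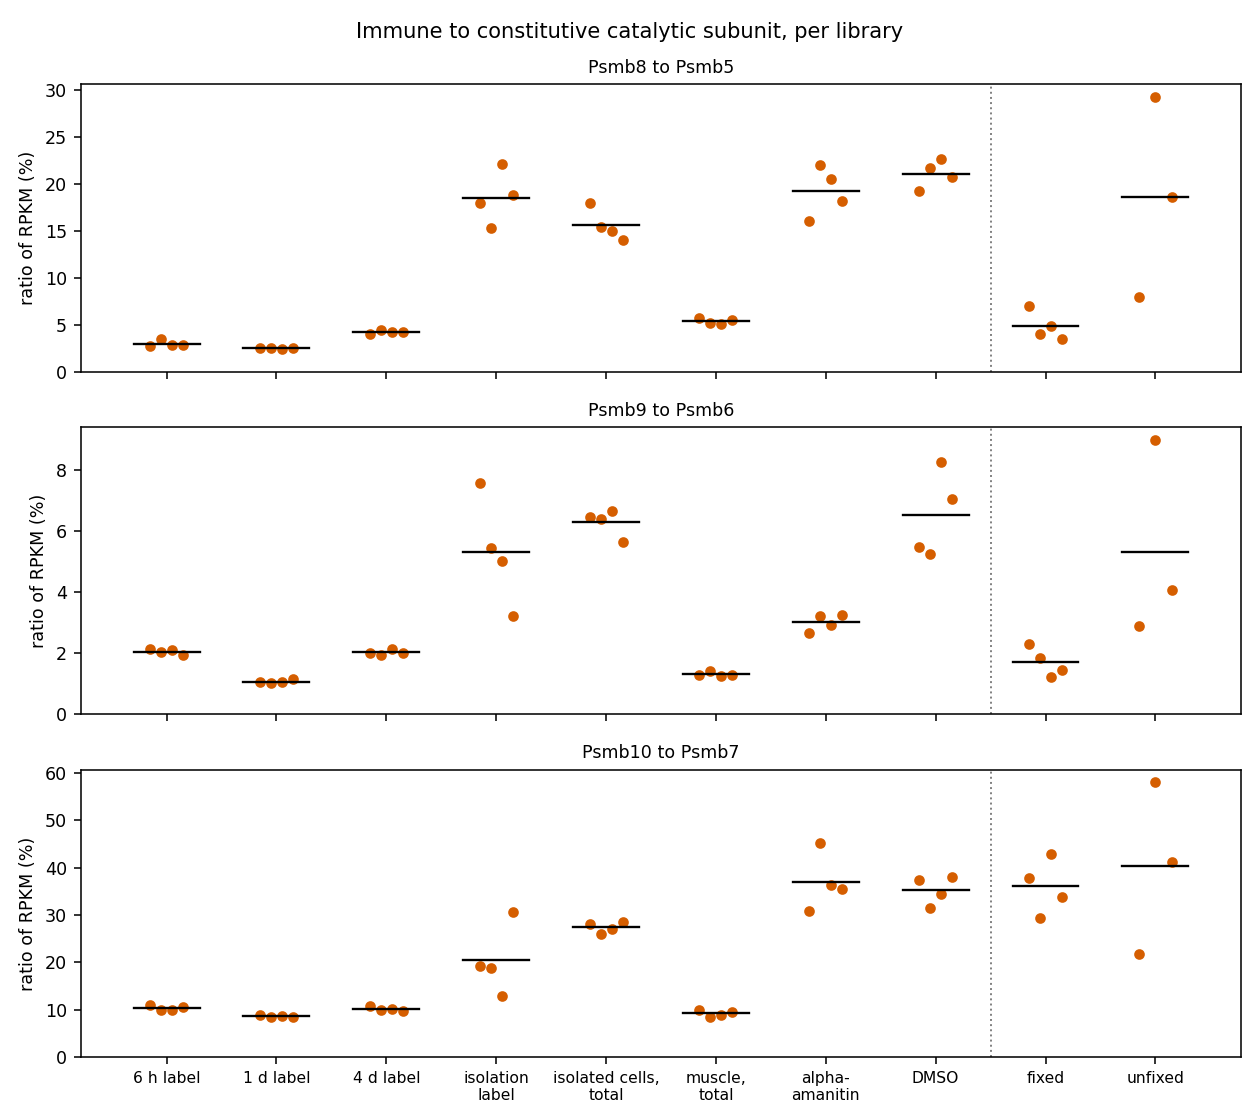
RPKM of each immune catalytic gene as a percentage of its constitutive counterpart, per library, in 3 panels (Psmb8 to Psmb5, Psmb9 to Psmb6, Psmb10 to Psmb7). Whole muscle and in vivo labelled libraries lie at or below 5.69%, 2.15% and 10.97% in the 3 panels, and the isolated MuSC libraries without fixation lie above these values.

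Psmb8 and Psmb9 lie next to each other on chromosome 17 of mm10 (Psmb9 at 34181988 to 34187764 on the minus strand, Psmb8 at 34197721 to 34201454 on the plus strand), with the peptide transporter gene Tap1 between them (34187553 to 34197225, plus strand) and overlapping the start of Psmb9. No source used here says whether counting used strand, so reads of the overlap may be shared. Psmb10 stands alone on chromosome 8 (105935728 to 105938392, minus strand), Psmb5 on chromosome 14 (54614120 to 54617995, minus strand) and Psmb6 on chromosome 11 (70525367 to 70527858, plus strand). In all, 6 of the 37 members have a gene span that overlaps another gene: Psma3, Psmb7, Psmb9, Psmc3, Psmd1 and Psmd13. Their values are uncertain to that extent.

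Across the 8 comparisons, each a limma fit over all genes that passed 1 RPKM in at least 3 of the compared libraries, all 37 members passed the filter every time. A member is said to rise or fall where its Benjamini-Hochberg adjusted p over all genes was under 0.05. Changes are differences in mean log2(RPKM + 0.5), which understates the change of low genes. Whole muscle enters 4 of the comparisons, and isolation-labelled, 6 h labelled and total MuSC RNA enter 2 each, so their changes are not independent of each other. Where no member was called in a direction, none reached an unadjusted p under 0.05 in that direction and limma-voom on the recovered reads also called 0.

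**Figure D4:**
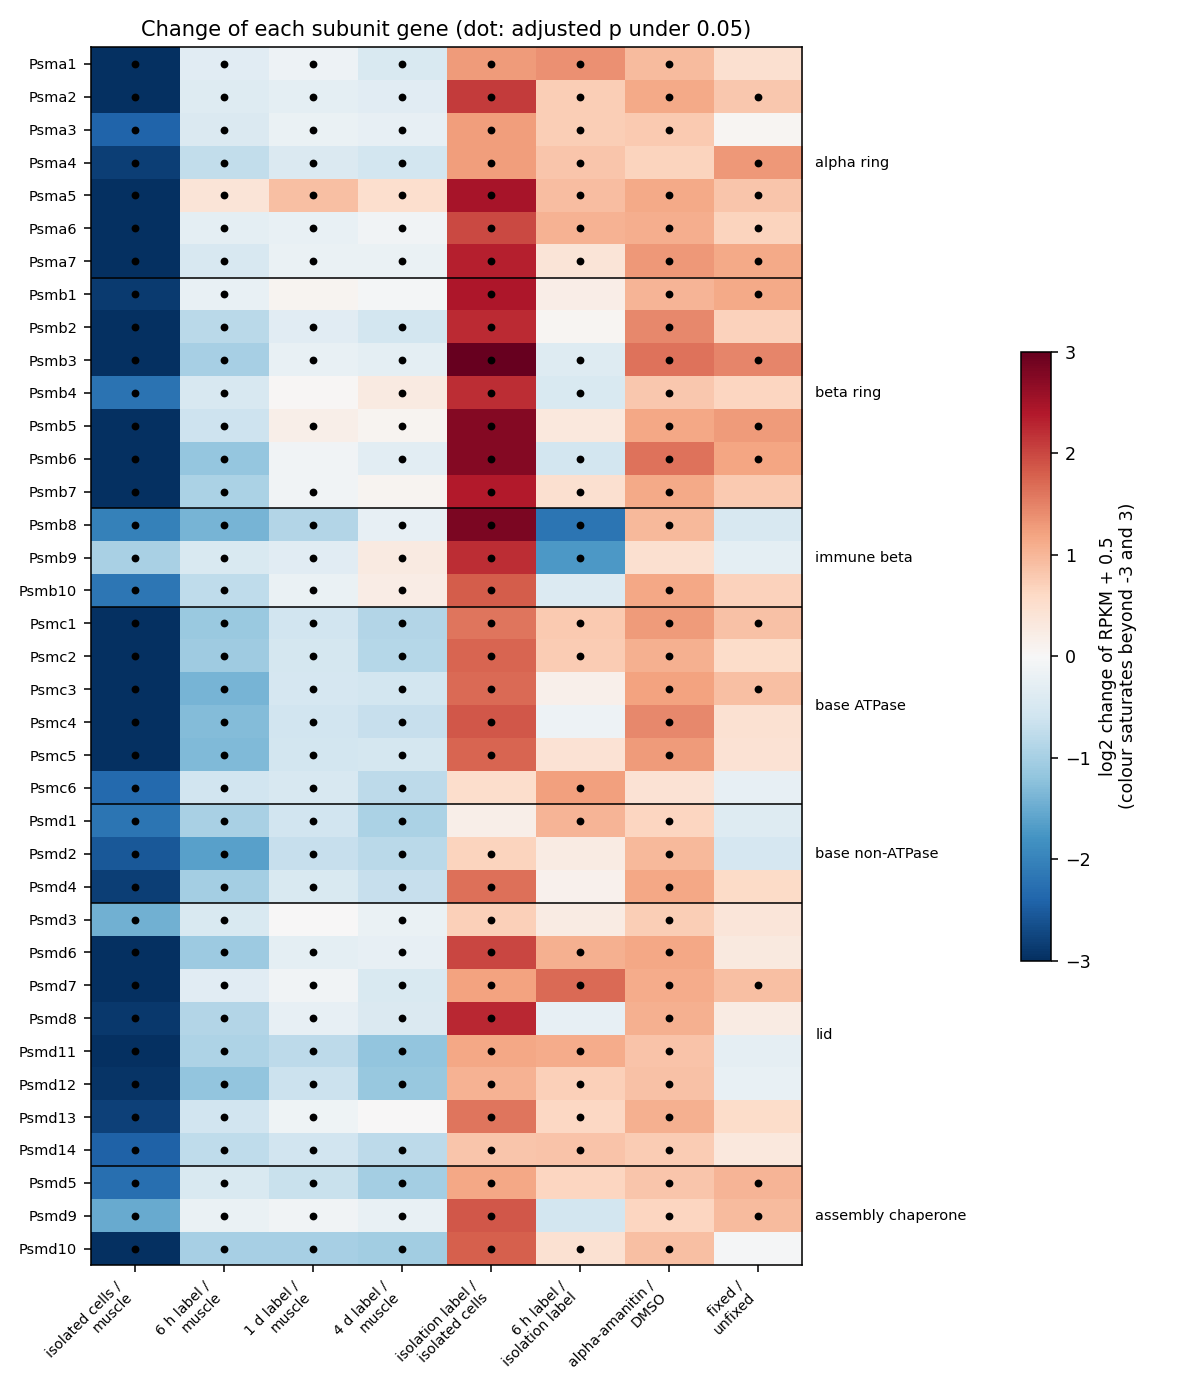
Change of each of the 37 members (down the page, by subcomplex) in each of the 8 comparisons (across) as the difference in mean log2(RPKM + 0.5); the colour saturates at 3 in either direction and a dot marks an adjusted p under 0.05. The columns for α-amanitin and isolation-labelled RNA are almost wholly higher (34 and 35 of 37 called), that for total MuSC RNA against whole muscle is wholly lower (37 called), and the column for fixed cells has 14 called genes, 9 of them in the core.

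MuSCs isolated with α-amanitin held more proteasome RNA, relative to their other RNA on the authors' scale, than MuSCs isolated with DMSO. The comparison addresses how transcription during isolation alters the RNA that is measured. Of the 37 members 34 rose and none fell, where 33.9% of all 13710 genes tested rose and 10.3% fell. The median member changed by 1.06 (log2) and the median gene by 0.28, and 18 members stood above the DMSO libraries without overlap, as did 17.9% of all genes tested. All 7 beta ring genes, 6 of 7 alpha ring genes, 5 of 6 ATPases, all 3 other base genes, all 8 lid genes, all 3 chaperones and 2 of 3 immune genes rose, with a median of 1.14 in the core and 1.06 in base and lid together.

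Psmb6, a catalytic subunit with caspase-like specificity, had 67.2, 148, 147 and 140.3 RPKM in α-amanitin replicates 1 to 4, against 51.9, 38.7, 32.02 and 33.01 RPKM in DMSO replicates 1 to 4. All 4 α-amanitin libraries stood above all DMSO libraries, with α-amanitin replicate 1 the lowest and DMSO replicate 1 the highest of their groups. The change was 1.64 ± 0.29 (log2, SE), or 3.11-fold, with an adjusted p of 0.00469. Psmb5, the chymotrypsin-like subunit, had 27.2, 63.9, 62.8 and 60.2 RPKM in α-amanitin cells, against 31.2, 20.2, 18.5 and 20.97 RPKM in DMSO cells. Here the first replicates crossed over while the other 3 of each group were far apart, and the rise was 1.17 (2.25-fold, adjusted p = 0.0143). The crossing of the first replicates in RPKM recurred in Psmb8, at 4.37, 14.1, 12.9 and 10.9 RPKM in α-amanitin cells against 6.00, 4.38, 4.19 and 4.35 RPKM in DMSO cells, which rose by 0.98 (adjusted p = 0.0323). Psmb8 also crossed as a share of gene reads, with 654 and 642 reads in the first α-amanitin and DMSO replicates.

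**Figure D5:**
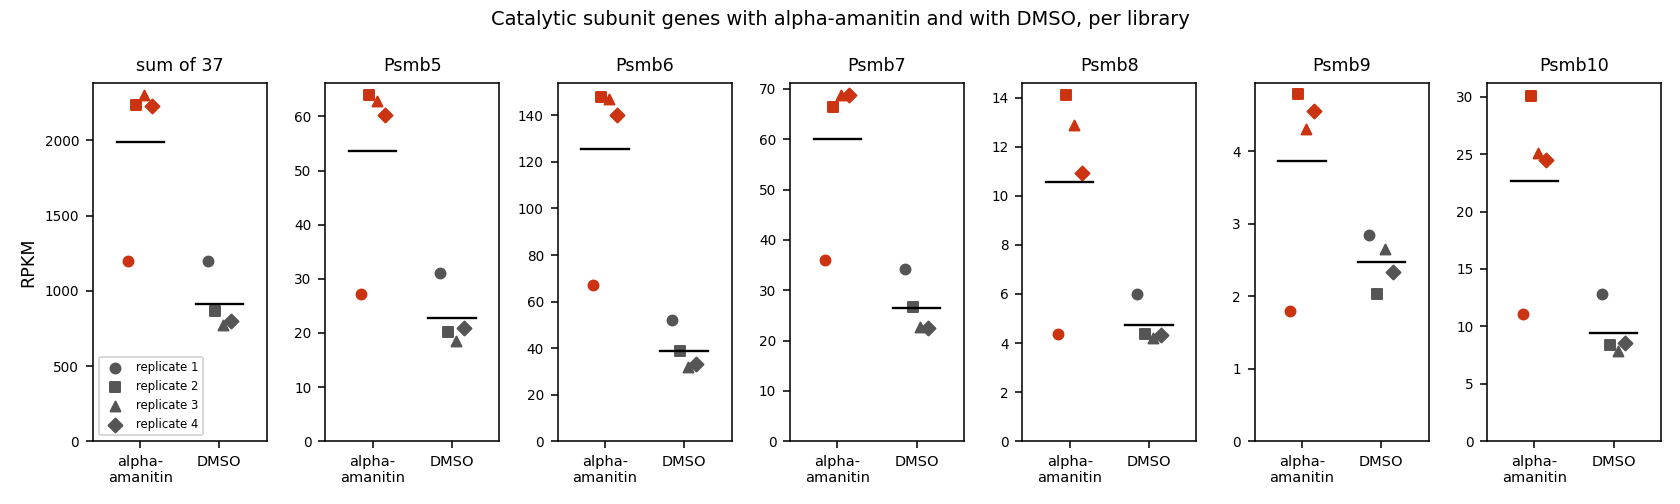
RPKM per library of the 37 members summed and of the 6 catalytic genes Psmb5 to Psmb10, with α-amanitin cells left and DMSO cells right in each panel and the marker shape giving the replicate number. Replicate 1 is the lowest α-amanitin library and the highest DMSO library in every panel, and in the summed panel the α-amanitin libraries (1197 to 2304) stay just above the DMSO libraries (776 to 1196).

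Beside Psmb6 the members that rose most without overlap were Psmb3, a structural beta ring gene, by 1.63 (53.8 ± 18.1 in α-amanitin and 16.4 ± 3.81 RPKM in DMSO cells, adjusted p = 0.00519), the ATPase gene Psmc4 by 1.45 (61.2 ± 17.7 and 21.4 ± 3.07 RPKM, adjusted p = 0.00458) and Psmb2, another structural beta gene, by 1.43 (102 ± 26.4 and 37.01 ± 7.92 RPKM, adjusted p = 0.00457). In the alpha ring Psma7 rose most, by 1.31. In the lid the rises ran from 0.74 for Psmd3 to 1.16 for Psmd6, and in the other base genes from 0.64 for Psmd1, the large scaffold, to 1.16 for Psmd4, a ubiquitin receptor. Among the chaperones Psmd10 rose by 0.91 and Psmd9 by 0.66. Of the immune genes Psmb10 rose by 1.17 (22.7 ± 8.11 and 9.40 ± 2.30 RPKM, adjusted p = 0.0143). The 3 members that did not pass were Psmc6, an ATPase gene, at 0.44 (adjusted p = 0.0964), Psma4 at 0.67 (0.0594) and Psmb9 at 0.49 (0.129). Psmb9 had 1.80, 4.79, 4.31 and 4.56 RPKM in α-amanitin cells and 2.85, 2.03, 2.65 and 2.33 RPKM in DMSO cells.

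The genes around the complex rose less uniformly. Of 5 assembly factors of the core, all 5 rose, led by Pomp, the maturation protein, by 1.39 (adjusted p = 0.00542) and Psmg4 by 1.05 (0.0128). Of 6 other genes of the regulatory particle 5 rose, led by the ubiquitin receptor gene Adrm1 (1.51, adjusted p = 0.00367) and by Shfm1, a small lid component (1.23, 0.00921). Of 5 activator and inhibitor genes 3 rose, led by Psme2 (1.05, 0.0194) and Psmf1 (0.71, 0.0238). Of 4 ubiquitin and E1 genes 2 rose, the polyubiquitin gene Ubb (1.52, 0.00789) and Rps27a, which encodes ubiquitin fused to a ribosomal protein (0.78, 0.0274), while the E1 gene Uba6 fell (-0.93, 0.00918). The list called Nfe2l1 pathway here held Nfe2l1, Vcp, Ddi2, Ngly1 and the separate transcription factor gene Nfe2l2. None of these 5 genes passed the limma test, and 0 had an unadjusted p under 0.05, with Vcp nearest at 0.51 (0.0951). Of 8 antigen presentation and interferon genes 2 rose, H2-D1 (0.80, 0.0365) and Tapbp (0.78, 0.0450), and of 4 muscle ubiquitin ligases Trim63 (3.94, 0.000373) and Fbxo32 (1.73, 0.00138) rose.

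Muscle fibre markers moved with this result: all 16 rose, by a median of 6.15, and they took 0.959, 2.37, 2.53 and 2.91% of reads in α-amanitin replicates 1 to 4, against 0.0405 to 0.0601% in DMSO cells. The α-amanitin library with the smallest share was also the one with the lowest proteasome sum. In α-amanitin replicates 2 to 4 the sums were 2236, 2304 and 2228 RPKM, which did not follow the order of their shares. Satellite cell markers took 0.644 to 0.777% of reads in α-amanitin cells, against 0.922 to 1.14% in DMSO cells. Of the other marker lists 7 of 10 fibro-adipogenic genes rose (median of the list 1.11), all 5 erythroid genes tested rose (1.44), 5 of 10 leukocyte genes rose and 1 fell (0.78), and 4 of 10 endothelial genes rose and 1 fell (0.33). The part of these markers in the result was not tested. Without α-amanitin replicate 2 the count of risen members was 20, where 2317 of 13406 genes rose. Without both first replicates, chosen after seeing the data, the count was 37 with a median of 1.44, where 8105 of 13435 genes rose. On the scale of all gene reads 31 members rose and 0 fell, where 3190 of 14325 genes rose and 4206 fell. The median member was at 0.56 there and the median gene at -0.24. When libraries were scaled on mitochondrially encoded transcripts, which the inhibited polymerase does not make, no member rose and 29 fell. Of all genes 313 of 15086 then rose and 12574 fell. The median member stood at -0.40 and the median gene at -1.11, against 0.28 for the median gene on the authors' scale. The direction of these changes therefore depends on the scaling.

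RNA pulled down after labelling during isolation held more of most proteasome transcripts than the total RNA of isolated MuSCs. Of 37 members 35 rose and none fell in isolation-labelled RNA against total MuSC RNA, where 29.8% of 14863 genes rose and 29.7% fell, and the same 35 stood above total MuSC RNA without overlap, as did 29.2% of all genes tested. The median member changed by 1.78 and the median gene by -0.07. Core genes rose by a median of 2.28, base and lid genes by 1.6 and the immune genes by 2.21.

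Psmb3 had 96.6, 115, 133 and 141 RPKM in isolation-labelled RNA, against 13.9 to 14.9 RPKM in total MuSC RNA. The groups were far apart, and the rise of 3.02 (8.13-fold, adjusted p = 2.24e-07) was the largest of any member. Psmb8 followed at 19.6, 22.3, 27.6 and 21.1 RPKM in isolation-labelled RNA, against 3.004, 2.75, 2.69 and 2.54 RPKM in total MuSC RNA. This immune gene rose by 2.83 (7.09-fold, adjusted p = 4.55e-07), beside its constitutive counterpart Psmb5, which rose by 2.76 (123 ± 16.7 and 17.7 ± 0.648 RPKM, adjusted p = 1.87e-07). Psmb6 had 197, 236, 224 and 283 RPKM in isolation-labelled RNA, against 31.7 to 36.2 RPKM in total MuSC RNA, a rise of 2.74. The other immune genes rose as well, Psmb9 by 2.21 (14.9, 12.8, 11.2 and 9.14 RPKM, against 2.04 to 2.37 RPKM) and Psmb10 by 1.82 (17.98, 22.9, 18.3 and 28.7 RPKM, against 5.34 to 5.99 RPKM), and Psmb7 rose by 2.37.

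The other subcomplexes followed with smaller values. In the alpha ring the rises ran from 1.25 for Psma3 to 2.48 for Psma5, in the ATPases up to 1.87 for Psmc4, in the lid from 0.72 for Psmd3 to 2.26 for Psmd8, and in the chaperones from 1.17 for Psmd5 to 1.85 for Psmd9. Psmd6, a lid gene, had 35.03, 77.1, 78.9 and 32.2 RPKM in isolation-labelled RNA, against 12.1 to 12.6 RPKM in total MuSC RNA. The labelled libraries split into a high and a low pair here, as they did for Psmc6, at 38.7, 72.5, 68.5 and 30.7 RPKM against 31.9 to 35.2 RPKM. Psmc6 (0.52, adjusted p = 0.109) and Psmd1 (0.18, 0.451) were the 2 members that did not pass. With all gene reads as the library size both turned to -0.17 and -0.50, with 28 members higher and 1 lower. Of all genes 2974 of 15416 were then higher and 7678 lower.

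Around the complex, 5 of 5 assembly factors rose (Pomp by 2.55, adjusted p = 1.79e-07, and Psmg4 by 2.61, 7.27e-06), 3 of 5 activator and inhibitor genes rose (Psme1 by 1.85, 3.65e-06, and Psme2 by 2.09, 6.36e-06), and 3 of 6 other regulatory particle genes rose (Shfm1 by 3.02, 3.45e-07, and Adrm1 by 1.86, 2.67e-06) while Ube3c fell (-0.52, 0.0209). Of the ubiquitin and E1 genes 2 of 4 rose (Ubb by 2.10, 8.01e-07, and Rps27a by 2.79, 9.04e-07) and the E1 genes Uba6 (-1.56, 0.000211) and Uba1 (-0.65, 0.00232) fell. None of the 5 Nfe2l1 pathway genes passed in limma, and 0 had an unadjusted p under 0.05, with values between -0.32 (Nfe2l2, 0.0791) and 0.22 (Ngly1, 0.588). Of 8 antigen presentation and interferon genes 5 rose (B2m by 2.60, 5.93e-07, and H2-D1 by 1.38, 3.09e-06) and 0 fell. Among the ligases Trim63 (5.31, 9.14e-07) and Fbxo32 (3.08, 0.000113) rose and Fbxo30 (-1.23, 0.000210) and Trim32 (-0.70, 0.0288) fell.

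Markers of other cells moved with this comparison too. All 16 muscle fibre markers rose, taking 2.65, 8.25, 8.84 and 2.79% of reads in isolation-labelled replicates 1 to 4, against 0.0653 to 0.151% in total MuSC RNA, and replicates 2 and 3 were the same libraries in which Psmd6 and Psmc6 stood high. Of 10 leukocyte markers 8 rose (0.0602 to 0.0689% of reads, against 0.0118 to 0.0126%), and 9 of 10 satellite cell markers fell (0.218 to 0.423%, against 1.02 to 1.06%). All 5 erythroid genes tested rose (median of the list 4.52), 9 of 10 fibro-adipogenic genes rose and 1 fell (1.98), and 6 of 10 endothelial genes rose and 2 fell (0.97). Their part in the result was not tested.

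On the authors' scale, RNA labelled over 6 h in the animal held less Psmb8 and Psmb9 and more of the alpha ring transcripts than RNA labelled over about 6 h of isolation. Of 37 members 19 rose and 5 fell in 6 h labelled RNA against isolation-labelled RNA, where 38.5% of 13003 genes rose and 24.4% fell. The median member changed by 0.45 and the median gene by 0.31, so the members as a whole stood close to the background. All 7 alpha ring genes (median 0.84), 6 of 8 lid genes (0.78) and 3 of 6 ATPases (0.60) rose, whereas of the beta ring 1 rose and 3 fell (median 0.07), and 2 of the 3 immune genes fell (median -1.72); the difference between subcomplexes was not tested. Over the main fit and its alternatives (17 settings) Psma1, Psma5 and Psma6 passed in 17, Psma2, Psma3 and Psma4 in 16 and Psma7 in 8. With all gene reads as the library size Psma7 stood at -0.18 and did not pass.

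Psmb8 had 4.31, 5.01, 4.36 and 4.38 RPKM after 6 h in vivo, against 19.6, 22.3, 27.6 and 21.1 RPKM in isolation-labelled RNA. No libraries overlapped, and the fall of 2.20 on the log2 scale (4.59-fold, adjusted p = 2.84e-06) was the largest of the members. Psmb9 fell likewise, with 3.16 to 3.46 RPKM after 6 h in vivo against 9.14 to 14.9 RPKM in isolation-labelled RNA (-1.72, adjusted p = 2.77e-05). Psmb10, with 15.1 to 17.05 RPKM against 17.98 to 28.7 RPKM, did not pass (-0.41, adjusted p = 0.0545). The beta ring genes that fell were Psmb6 (-0.55, adjusted p = 0.00557), Psmb4 (-0.47, 0.00501) and Psmb3 (-0.38, 0.0363), and Psmb7 rose (0.48, 0.0235), while Psmb5 stood at 0.32 (0.0522).

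The largest rise was that of Psmd7, a lid gene, with 249.1, 238, 245 and 248.9 RPKM after 6 h in vivo, against 44.7, 104, 112 and 60.2 RPKM in isolation-labelled RNA. The in vivo libraries agreed closely, the isolation-labelled ones again fell into a low and a high pair, and the rise was 1.70 (3.25-fold, adjusted p = 0.000606). Next came Psma1 (132, 131, 134 and 135 RPKM, against 43.6, 56.1, 68.3 and 40.1 RPKM; 1.38, adjusted p = 0.000128), Psmc6 (1.24, 0.00286), Psmd11, a lid scaffold gene (1.11, 0.00415), and Psmd1 (1.03, 0.0020). With all gene reads as the library size 7 members rose and 12 fell, where 2558 of 13167 genes rose and 4883 fell. The median member was then at -0.09 and the median gene at -0.22, so the members again stood close to the background. Psmb5 stood at -0.24 and Psmb7 at -0.08 on that scaling, and Psmb8 and Psmb9 fell on both scalings.

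In the wider pathway 4 of 5 Nfe2l1 pathway genes rose (the protease gene Ddi2 by 2.49, adjusted p = 2.40e-06, and Nfe2l2 by 1.21, 0.000158), 6 of 8 antigen presentation and interferon genes fell (B2m by 2.45, 2.08e-06, and H2-D1 by 1.31, 1.33e-05, on the log2 scale), and 2 of 4 ubiquitin and E1 genes fell (Ubb by 2.11, 2.20e-06, and Rps27a by 2.10, 1.15e-05). Of the activators 2 rose (Psme4 by 1.75, 2.46e-05, and Psme3 by 0.39, 0.0159) and 2 fell (Psme2, -1.24, 0.000240, and Psme1, -0.61, 0.00394). Of the other regulatory particle genes 3 of 6 rose (Ube3c by 1.06, 0.000232, and Usp14 by 1.08, 0.00169) and Shfm1 fell (-0.90, 0.000654). Among the assembly factors Psmg1 rose (0.72, 0.00983) and Psmg4 fell (-2.03, 4.81e-05), and 3 of 4 ligases rose (Trim63 by 4.79, 1.93e-06, and Fbxo32 by 2.95, 0.000147). Muscle fibre markers took 11.6 to 11.8% of reads after 6 h in vivo against 2.65 to 8.84% in isolation-labelled RNA, with 13 of 16 higher, and all 10 satellite cell markers fell. Of the leukocyte markers 5 of 10 rose and 1 fell, and of the endothelial markers 2 of 10 rose and 4 fell. Of the fibro-adipogenic markers 3 of 10 fell and 0 rose, and of the erythroid markers 4 of 5 tested fell and 0 rose. The part of these markers in the result was not tested.

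Set against whole muscle, RNA labelled in vivo held less of most proteasome transcripts, and the shortfall was smaller at 1 d and 4 d than at 6 h. After 6 h of labelling 1 of 37 members was higher and 36 were lower than in whole muscle, where 45.6% of 11746 genes were higher and 44.4% lower. After 1 d the counts were 2 higher and 31 lower (28.2% and 54.7% of 11158 genes), and after 4 d they were 5 higher and 29 lower (28.1% and 56.4% of 11347 genes). The median member stood at -0.76, -0.30 and -0.44, and the median gene at 0.02, -0.19 and -0.21. The core lay nearer to whole muscle than the regulatory particle did, at medians of -0.48, -0.17 and -0.22 against -1.03, -0.52 and -0.69, and 16 or 17 of the 17 base and lid genes were lower at each time. These 3 comparisons share the whole muscle libraries, and differences between the label times or between subcomplexes were not tested.

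Psma5, an alpha ring gene at 108256926 to 108279974 on chromosome 3, was the member above whole muscle at all 3 times. It had 183, 177, 181 and 189 RPKM after 6 h, 296, 248, 253 and 249.4 RPKM after 1 d, and 194, 192, 195 and 204 RPKM after 4 d of labelling, against 131, 139, 142 and 144 RPKM in whole muscle. Each labelled library stood above each muscle library, with the 1 d libraries highest. The rises were 0.39 (adjusted p = 2.86e-07), 0.91 (7.12e-09) and 0.50 (5.56e-08). The other members higher at a time were Psmb5 after 1 d (0.17, 0.00308) and 4 d (0.09, 0.0465), and, after 4 d, Psmb4 (0.28, 3.92e-05), Psmb9 (0.28, 0.000284) and Psmb10 (0.22, 0.000624). In a fit of all groups with a shared spread Psma5 alone was higher after 1 d and after 4 d, with 16 and 18 members lower. Of all genes 1836 were then higher and 3691 lower of 11158 after 1 d, and 1883 and 4154 of 11347 after 4 d. With all gene reads as the library size 11 and 9 members were higher and 20 and 22 lower. On that scale 4776 genes were higher and 4351 lower of 11221 after 1 d, and 4569 and 4990 of 11403 after 4 d.

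The 3 constitutive catalytic genes stood lowest at 6 h of the label times. Psmb5 had 157, 142, 153 and 157 RPKM after 6 h, 285, 251, 263 and 260 RPKM after 1 d, and 244, 236, 259 and 263 RPKM after 4 d, against 232, 233, 240 and 237 RPKM in whole muscle. The 6 h libraries all lay below whole muscle, the 1 d libraries above it, and the 4 d libraries overlapped it by 1 library. Psmb6 had 163, 155, 154 and 164 RPKM after 6 h, 381, 319, 322 and 317 RPKM after 1 d, and 274, 278, 290 and 299 RPKM after 4 d, against 346, 345, 361 and 381 RPKM in whole muscle. Its changes were -1.17 (adjusted p = 1.33e-11), -0.10 (0.137) and -0.33 (9.45e-06). Psmb7 changed by -0.95 (2.03e-11), -0.10 (0.0410) and 0.08 (0.101), and so fell at 6 h and 1 d.

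The immune genes stood furthest below whole muscle at 6 h. Psmb8 had 4.31, 5.01, 4.36 and 4.38 RPKM after 6 h, 7.19, 6.29, 6.35 and 6.58 RPKM after 1 d, and 9.90, 10.4, 11.03 and 11.2 RPKM after 4 d, against 13.2, 12.0, 12.3 and 13.0 RPKM in whole muscle. It was lower at each time without overlap, by 1.39 (2.62-fold, adjusted p = 4.68e-11), 0.89 (3.05e-09) and 0.24 (0.000489) on the log2 scale. Psmb9 changed by -0.47 (9.39e-07), -0.35 (0.000113) and 0.28 (0.000284), and Psmb10 by -0.76 (9.86e-09), -0.19 (0.00489) and 0.22 (0.000624).

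In the regulatory particle the largest fall after 6 h was that of Psmd2, the scaffold of the base, with 56.1, 55.2, 53.5 and 53.1 RPKM after 6 h, against 163, 168, 173 and 178 RPKM in whole muscle (-1.64, 3.11-fold, adjusted p = 3.42e-13). The ATPase genes Psmc3 (-1.39, 1.74e-12) and Psmc5 (-1.32, 1.83e-12) followed. At the later times Psmd10 was among the lowest, at -0.99 (1.93e-11), -1.005 (6.74e-10) and -1.04 (6.74e-10) after 6 h, 1 d and 4 d, and Psmd11 changed by -0.92 (1.80e-11), -0.78 (9.45e-10) and -1.19 (7.09e-11). Psmd10 had 14.9 to 15.7 RPKM after 6 h, 14.04 to 16.1 RPKM after 1 d and 13.6 to 15.9 RPKM after 4 d, against 29.9 to 31.6 RPKM in whole muscle, so that its labelled level differed little between the times. After 4 d Psmd12 (-1.14, 4.25e-11) and Psmd5 (-1.03, 9.14e-11) were also low. The members least changed were the lid genes Psmd3 after 1 d (0.02, 0.695) and Psmd13 after 4 d (0.01, 0.801); without whole muscle replicate 4 the value of Psmd3 was -0.004, and without 4 d replicate 3 that of Psmd13 was -0.02.

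Of the pathway lists, activators and inhibitor gave 1 higher and 4 lower of 5 at each time, with Psme4 the higher one (0.31, 0.85 and 0.99 after 6 h, 1 d and 4 d; adjusted p = 1.23e-05, 1.62e-09 and 1.08e-09) and Psmf1 among the lower (-0.74, -0.43 and -0.89; 7.80e-09, 1.37e-06 and 1.09e-09). Assembly factors gave 1, 1 and 2 higher and 4, 2 and 1 lower of 5, with Psmg3 higher (0.67, 0.30 and 0.20; 1.96e-08, 0.000350 and 0.00201) and Pomp lower (-1.17, -0.50 and -0.31; 8.78e-12, 2.11e-06 and 7.87e-06). Other regulatory particle genes gave 0, 2 and 2 higher and 5, 4 and 4 lower of 6, with the deubiquitinase gene Uchl5 lowest (-1.65, -1.10 and -1.35; 8.94e-13, 1.69e-10 and 2.38e-11). Nfe2l1 pathway genes gave 2, 2 and 1 higher and 3, 3 and 3 lower of 5, with Ddi2 higher (1.55, 1.07 and 0.42; 2.16e-11, 8.25e-10 and 1.31e-05) and Vcp lower (-1.25, -0.31 and -1.03; 1.85e-12, 1.19e-05 and 9.20e-11). Ubiquitin and E1 genes gave 1, 0 and 1 higher and 3, 2 and 2 lower of 4, with Ubb lower (-1.24, -0.49 and -0.997; 1.89e-11, 6.88e-06 and 4.96e-10). Antigen presentation and interferon genes gave 2, 0 and 1 higher and 5, 7 and 5 lower of 7 tested, with B2m lower (-1.29, -1.16 and -0.64; 7.50e-13, 6.24e-11 and 9.54e-08). Muscle ligases gave 4, 2 and 0 higher and 0, 2 and 4 lower of 4, with Trim63 at 2.41, 0.78 and -0.74 (2.39e-13, 4.84e-08 and 2.31e-07). Muscle fibre markers took 11.6 to 11.8, 21.02 to 21.3 and 20.4 to 21.2% of reads after 6 h, 1 d and 4 d, against 18.1 to 18.5% in whole muscle, with 0, 6 and 5 of 16 higher and 16, 7 and 10 lower. Leukocyte markers were lower for 8, 10 and 9 of 10 genes and took 0.0581 to 0.0639, 0.0391 to 0.0419 and 0.0455 to 0.0508% of reads, against 0.0676 to 0.0761% in whole muscle. Fibro-adipogenic markers were lower for 7, 7 and 8 of 10 genes and higher for 3, 2 and 2. Satellite cell markers were higher for 6 of 8, 3 of 7 and 3 of 7 genes tested and lower for 2 at each time. They took 0.0389 to 0.0446, 0.0174 to 0.0178 and 0.0160 to 0.0166% of reads, against 0.0128 to 0.0137% in whole muscle. Endothelial markers were higher for 6, 5 and 3 of 10 genes and lower for 3, 4 and 6. Their shares were 0.176 to 0.181, 0.0873 to 0.0920 and 0.0911 to 0.0957%, against 0.104 to 0.108%. Of 5 erythroid markers tested all 5 were lower after 6 h and after 1 d, and 4 were higher and 0 lower after 4 d (0.0302 to 0.0359, 0.0643 to 0.0677 and 0.217 to 0.242% of reads, against 0.129 to 0.145% in whole muscle), the time at which Psmb9 and Psmb10 stood above whole muscle. The part of these markers in the result was not tested.

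Purified MuSCs held far less proteasome RNA than whole muscle, and the lowest summed RPKM of the table, although the members' share of reads averaged 0.310% in total MuSC RNA, against 0.292% in DMSO cells. All 37 members were lower in total MuSC RNA than in whole muscle RNA, where 46.5% of 14813 genes were lower and 48.8% higher, and all 37 stood below whole muscle without overlap, as did 45.7% of all genes tested. The median member changed by -3.01 and the median gene by 0.06, with the core at -3.15, base and lid at -2.93 and the immune genes at -2.02.

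Psmd6 had 12.6, 12.1, 12.4 and 12.6 RPKM in total MuSC RNA, against 224, 227, 236 and 232 RPKM in whole muscle. It fell by 4.15 on the log2 scale (17.8-fold, adjusted p = 2.00e-16), the largest change of a member in any of the 8 comparisons. Psmb5 had 16.7, 17.8, 17.98 and 18.2 RPKM, against 232, 233, 240 and 237 RPKM, and fell by 3.70 (13.0-fold, 5.90e-16). The other catalytic genes were close to it, Psmb7 at -3.80 (1.02e-15) and Psmb6 at -3.36 (1.54e-14), as was Psmb3 at -3.63 (9.66e-16). The smallest fall was that of Psmb9, with 2.04 to 2.37 RPKM in MuSCs against 4.46 to 4.89 RPKM in muscle (-0.97, 1.95-fold, 3.86e-09), followed by Psmd3 (-1.44, 3.53e-12) and Psmd9 (-1.52, 2.65e-11). Psmb8 (-2.02, 2.09e-12) and Psmb10 (-2.17, 5.05e-13) lay between. With all gene reads as the library size 2 members, Psmb9 (0.43) and Psmd3 (0.14), were higher and 34 lower, where 12212 of 16095 genes were higher and 3339 lower. The median member was then at -1.41 and the median gene at 1.56.

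Elsewhere in the pathway all 5 activator and inhibitor genes (Psme1, -1.97, adjusted p = 3.92e-14; Psmf1, -1.53, 1.63e-11, and the rest), all 5 assembly factors (Pomp, -3.79, 3.78e-15) and all 6 other regulatory particle genes (Adrm1, -3.14, 8.58e-15) were lower. Of the Nfe2l1 pathway genes 4 of 5 were lower (Ngly1, -2.50, 5.58e-14) and Nfe2l2 stood at 0.02 (0.715). Ubiquitin and E1 genes split 2 and 2, with Uba6 higher (1.83, 1.39e-12) and Ubb lower (-1.22, 4.30e-10), and of 8 antigen presentation and interferon genes 4 were higher and 3 lower, with Irf1 higher (1.52, 5.69e-12) and B2m lower (-1.44, 5.53e-12). Of the ligases Fbxo30 was higher (1.81, 2.14e-12) and 3 were lower, with Trim63 at -7.69 (9.40e-15). This comparison sets cells against the tissue they come from: the 16 muscle fibre markers were all lower, with a median of -9.78, and the 10 satellite cell markers all higher, with a median of 5.14. Their part in the result was not tested.

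Cells fixed in the animal before isolation held more of the core transcripts than unfixed cells. The comparison addresses which part of the measured transcriptome arises during isolation. Of 37 members 14 rose and none fell in fixed cells, where 12.2% of 12816 genes rose and 10.8% fell, and 20 members stood above the unfixed libraries without overlap, as did 19.6% of all genes tested. The median member changed by 0.57 and the median gene by 0.07. The rises were concentrated by count in the core, with 5 of 7 alpha ring genes (median 0.80) and 4 of 7 beta ring genes (1.13), against 2 of 6 ATPases (0.50), 0 of 3 other base genes (-0.39), 1 of 8 lid genes (0.31), 2 of 3 chaperones (0.94) and 0 of 3 immune genes (-0.29); the difference between subcomplexes was not tested. At an unadjusted p under 0.05 limma gave 5, 7, 2, 1, 1, 2 and 0 members of these subcomplexes in the same order.

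Psmb3 had 88.8, 100, 108 and 121 RPKM in fixed cells, against 42.1, 31.2 and 38.8 RPKM in unfixed cells. Every fixed library stood above every unfixed library by a wide margin, and the rise was 1.48 (2.78-fold, adjusted p = 0.000836). Psmb5 had 98.0, 116, 162 and 115 RPKM in fixed cells, against 62.1, 43.2 and 44.8 RPKM in unfixed cells, and rose by 1.28 (2.43-fold, 0.00390). Psmb6 had 186, 181, 259 and 212 RPKM, against 97.7, 78.2 and 97.6 RPKM, and rose by 1.19 (2.28-fold, 0.00269). Both catalytic genes kept clear of overlap, whereas Psmb7, with 59.0, 79.6, 140 and 84.8 RPKM in fixed cells against 73.0, 35.5 and 49.0 RPKM in unfixed cells, overlapped and did not pass (0.77, 0.120).

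In the alpha ring Psma4 rose most, with 65.6, 88.9, 109 and 97.5 RPKM in fixed cells against 39.8, 29.5 and 37.8 RPKM in unfixed cells (1.31, adjusted p = 0.00310), and Psma3 least (0.06, 0.901). In the base Psmc3 rose by 0.90 (0.0146), while Psmc6 (-0.23, 0.436) and Psmd2 (-0.51, 0.155) did not pass. In the lid Psmd7 rose by 0.89 (0.0118) and Psmd11 stood at -0.27 (0.439), and among the chaperones Psmd5 rose by 1.02 (0.0196) and Psmd10 stood at -0.03 (0.975), with 1 fixed library at 1.81 RPKM and the other 3 between 8.55 and 9.83 RPKM. The immune genes varied among libraries: Psmb8 had 6.89, 4.60, 7.95 and 3.94 RPKM in fixed cells, against 4.96, 12.7 and 8.31 RPKM in unfixed cells (-0.49, 0.381). Psmb9 had 4.31, 3.36, 3.20 and 3.05 RPKM, against 2.82, 7.03 and 3.98 RPKM (-0.29, 0.584), and Psmb10 had 22.4, 23.4, 60.02 and 28.7 RPKM, against 15.9, 20.6 and 20.2 RPKM (0.70, 0.169). Unfixed replicate 2 was the highest for Psmb8 and Psmb9, and fixed replicate 4 for Psmb10.

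Of the pathway lists, 4 of 5 assembly factors rose (Psmg3 by 2.50, adjusted p = 0.000652, and Pomp by 1.40, 0.000732), as did 2 of 5 activators (Psme2 by 0.84, 0.0114, and Psme1 by 0.69, 0.0452) and 2 of 6 other regulatory particle genes (Sem1, the name of Shfm1 in this table, by 1.59, 0.00160, and Adrm1 by 0.70, 0.0462). The transcription factor genes Nfe2l2 (-1.18, 0.00691) and Nfe2l1 (-1.21, 0.0132) fell. Of the ubiquitin and E1 genes Rps27a (1.51, 0.000498) rose and Ubb (-0.73, 0.0227) fell. Of 8 antigen presentation and interferon genes 4 fell, among them Irf1 (-3.29, 0.000485) and H2-D1 (-1.85, 0.00775), and of 3 ligases tested Fbxo30 fell (-3.09, 0.000375). Endothelial markers were lower in fixed cells for 9 of 10 genes, taking 0.00644 to 0.0295% of reads in fixed cells against 0.0415 to 0.188% in unfixed cells. Satellite cell markers took 0.417 to 0.745%, against 0.773 to 0.859%, with 3 of 10 genes higher and 3 lower. Of 14 muscle fibre genes tested 4 fell and 0 rose, and of 10 fibro-adipogenic genes 3 fell and 0 rose. Of the leukocyte and erythroid genes 0 passed. The part of these markers in the result was not tested. The count of risen members was 9, 7 and 7 without unfixed replicates 1, 2 and 3, where 1070 of 12582, 982 of 12530 and 809 of 12587 genes rose. Psmb3 and Psma7 passed in each of these fits, and all 3 immune genes failed in all of the alternatives run.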

How the data were processed

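Poly(A)-primed RNA-seq libraries were analysed from 2 tables of RPKM values (reads scaled to gene-model length and library size) deposited by the authors, with 32 labelling and inhibitor libraries in the larger and 7 fixation libraries in the smaller. Trim Galore, STAR, featureCounts of Subread, edgeR and the mm10 build are named in the submitters' processing notes; no source used here gives versions, strand settings or the scaling formula. The larger table's header stands 1 cell left of its values, and columns were read accordingly. The tables were scaled separately and tests stay within each. Multiplying RPKM by gene length gave whole reads for 100% of values (tolerance 0.1 read), with library factors of 0.612 to 1.95 in the larger and 0.903 to 1.01 in the smaller table, so the authors' scaling differs from plain read totals. Intervals for single genes rest on the spread between libraries.

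Groups were compared with limma 3.58.1 (R 4.3.3) with an intensity trend on log2(RPKM + 0.5), using only the libraries of the 2 groups and genes of at least 1 RPKM in 3 or more of them, with Benjamini-Hochberg adjusted p over all genes and a threshold of 0.05. Summaries used Python 3.11.15, pandas 2.3.3 and matplotlib 3.10.9. The fit was tested on simulated data built from the means and library sizes of the DMSO libraries alone (13192 genes). The same assumed spread was used for every gene, and changes were placed only in genes of higher level. There it recovered 37.3% of 1.5-fold, 94.0% of 2-fold and 100% of 4-fold changes. No α-amanitin library entered, so these shares do not measure recovery among the real libraries, whose spread was not simulated. Alternatives were other pseudocounts, no filter, all groups in 1 fit, library sizes from all gene reads, median-of-ratios factors, mitochondrially encoded genes (α-amanitin only), limma-voom on the recovered reads, the replicate number as a block, and leaving out each library. The members, gene lists and tests were chosen with earlier results of these data known. Named in every comparison were the catalytic genes Psmb5 to Psmb10, the up to 4 called members of largest non-overlapping change in each direction, the extremes of each subcomplex and up to 2 genes per pathway list and direction by adjusted p; further members are given where a sentence needs them. Some genes of the pathway lists are not reported here and are in no list count.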

Additional observations from a re-analysis of the deposited data

Results flagged for a closer look

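Single libraries stood apart from the other 3 of their group, by Dixon's gap test at the 95% level, in 59 of the 333 sets of 1 member in 1 group of 4 (17.7%). The test was run on the members only, so no share over all genes stands beside this one. All members of a library share its scaling, so the sets are not independent and the share only describes these libraries. α-Amanitin replicate 1 was the library in 24 of these sets, DMSO replicate 1 in 13 and 1 d replicate 1 in 8.

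α-Amanitin replicate 1 was the lowest library for Psma5 (30.7 RPKM, the others 51.5 to 55.6), Psmb5 (27.2 RPKM, the others 60.2 to 63.9), Psmb6 (67.2 RPKM, the others 140.3 to 148), Psmb7 (35.998 RPKM, the others 66.4 to 68.9), Psmb9 (1.80 RPKM, the others 4.31 to 4.79) and the sum of the 37 members (1197, the others 2228 to 2304). DMSO replicate 1 was the highest for Psma5 (27.8 RPKM, the others 18.4 to 19.6), Psmb8 (6.00 RPKM, the others 4.19 to 4.38) and Psmb10 (12.8 RPKM, the others 7.84 to 8.59). On the authors' scale both libraries thus lay toward the other group. The 1 d replicate 1 was the highest for Psma5 (296 RPKM, the others 248 to 253), Psmb6 (381 RPKM, the others 317 to 322) and the members' percent of reads (0.782, the others 0.743 to 0.747).

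Further single values were Psmb10 in fixed replicate 4 (60.02 RPKM, the others 22.4 to 28.7), Psmb8 in 6 h replicate 2 (5.01 RPKM, the others 4.31 to 4.38), Psmb7 in total MuSC RNA replicate 3 (22.2 RPKM, the others 20.4 to 20.7) and the members' percent of reads in whole muscle replicate 4 (0.818, the others 0.795 to 0.797).

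Against whole muscle, 4 members lay wholly above at some label time and wholly below at another, and this difference between times was not tested. Psmb5 changed by -0.63 after 6 h and by 0.17 after 1 d, Psmb4 by -0.47 after 6 h and 0.28 after 4 d, Psmb10 by -0.76 after 6 h and 0.22 after 4 d, and Psmb9 by -0.47 and -0.35 after 6 h and 1 d and 0.28 after 4 d.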

How the results depend on the processing

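Of the counts of called members, 237 stayed within 1.5 times under an alternative and 21 did not; of the medians over members, 113 moved by less than their spread, 14 moved further and 2 reversed; of the changes of all 37 members, 4368 kept their direction and side of the threshold, 260 lost and 58 gained the call, and 87 reversed, 35 of them for α-amanitin on the mitochondrial scale. Values of single members below are for the 17 to 20 members per comparison chosen by the naming rule. The cause of these shifts was not tested.

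α-Amanitin against DMSO gave 34 higher members. The count was 5 with the replicate block, where 1678 of 13710 genes rose. With libraries scaled on mitochondrially encoded genes it was 0 higher and 29 lower with a median of -0.40, where 313 of 15086 genes rose and 12574 fell. On that scale Psma4 stood at -0.81, Psma7 at -0.18, Psmb2 at -0.065, Psmb4 at -0.69, Psmb5 at -0.32, Psmb7 at -0.35, Psmb8 at -0.43, Psmb9 at -0.81, Psmb10 at -0.29, Psmc4 at -0.040, Psmc6 at -1.05, Psmd1 at -0.84, Psmd3 at -0.74, Psmd4 at -0.33, Psmd6 at -0.31, Psmd9 at -0.72 and Psmd10 at -0.47. Leaving out each library gave 20 to 37 higher members, the 20 without α-amanitin replicate 2, where 2317 of 13406 genes rose.

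With all gene reads as the library size, Psmc6 stood at -0.067 for α-amanitin; isolation-labelled against total MuSC RNA gave 28 higher and 1 lower, with Psmc6 at -0.17 and Psmd1 at -0.50; 6 h against isolation-labelled RNA gave 7 higher and 12 lower with a median of -0.088, and Psma7 at -0.18, Psmb5 at -0.24, Psmb7 at -0.078 and Psmd4 at -0.42. On the same scale the comparisons with whole muscle gave 4 higher members after 6 h (among them Psmb1 at 0.13 and Psmd9 at 0.14, while Psmd7, at 0.019, did not pass), 11 higher and 20 lower after 1 d (among them Psmb6 at 0.12, Psmb7 at 0.12 and Psmd9 at 0.10, while Psmb10, at 0.027, did not pass), 9 higher after 4 d, and 2 higher in total MuSC RNA (Psmb9 at 0.43 and Psmd3 at 0.14). Of all genes 7127 of 11872, 4776 of 11221, 4569 of 11403 and 12212 of 16095 were higher in these comparisons, in the same order. Fixed against unfixed cells gave Psmd10 at 0.026. Median-of-ratios factors gave 8 lower members for 6 h against isolation-labelled RNA, and Psma3 at -0.022 for fixed cells. All groups in 1 fit gave 1 higher and 16 lower after 1 d, and 1 higher and 18 lower after 4 d.

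Leaving out each library gave 14 to 21 higher and 4 to 7 lower members for 6 h against isolation-labelled RNA and 7 to 18 higher for fixed cells. It also reversed small values. The range was -0.0030 to 0.23 for Psmd4 in 6 h against isolation-labelled RNA (lowest without isolation-labelled replicate 1), -0.0035 to 0.047 for Psmd3 after 1 d (lowest without whole muscle replicate 4), and -0.016 to 0.042 for Psmd13 after 4 d (lowest without 4 d replicate 3). For fixed cells it was -0.059 to 0.30 for Psma3 (lowest without fixed replicate 5), -0.55 to 0.035 for Psmb9 (highest without unfixed replicate 2), and -0.24 to 0.48 for Psmd10 (highest without fixed replicate 4).

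The groups share replicate numbers, but the labels do not say that a number marks 1 animal or day, and the correlations of same-numbered deviations ran from -0.59 to -0.11 for α-amanitin. Against whole muscle they were all positive but low, at 0.02 to 0.16 after 6 h, 0.02 to 0.14 after 1 d, 0.04 to 0.24 after 4 d and 0.01 to 0.22 for total MuSC RNA, and samples correlated best with their own number in 3, 1, 3 and 3 of 4 cases, a hint from the data and not the design, against 0 of 4 for α-amanitin and for 6 h against isolation-labelled RNA and 1 of 4 for isolation-labelled against total MuSC RNA. In no comparison was every correlation over 0.1, so the numbers were not taken as pairs. The replicate block gave 5 higher members for α-amanitin, where 1678 of 13710 genes rose. It gave 2 higher for fixed cells, where 845 of 12816 genes rose, with Psmb9 at 0.16 and Psmd10 at 0.52. The block counts were 17 higher and 4 lower for 6 h against isolation-labelled RNA, 2 and 28 after 1 d, and 6 and 30 after 4 d. In the other comparisons they equalled the main counts. Depth limits isolation-labelled RNA most, at 2321903 to 7742378 reads a library.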
